A study of Mus musculus with 6 samples.

Results

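Gfap, Olig1, Olig2, Mog, Mobp, Slc1a2, Slc1a3, Opalin and Aldh1l1 are 9 genes used as markers of astrocytes and oligodendrocytes, the glia of the central part of the cochlear nerve. They were taken by name from the 25812 genes of the table, and all 9 were found. FPKM values (fragments per kilobase of transcript per 1000000 fragments) of the transcripts of each gene were summed. The samples were cochlear basilar membranes of C57BL/6 mice, 3 samples from 1-month-old mice (young) and 3 samples from 12-month-old mice (old). Tissue of 3 mice was mixed in each sample, and the labels name no added allele or drug. The sources used here give no sex. The age groups differ in maturation as well as in ageing, and these cannot be told apart.

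The auditory nerve has a peripheral part, whose axons are wrapped by Schwann cells, and a central part near the brainstem, where oligodendrocytes make the myelin and astrocytes take the place of Schwann cells. Olig1 and Olig2 are transcription factors of the oligodendrocyte lineage. Mog, Mobp and Opalin encode proteins of central myelin, which Schwann cells make little of. Gfap encodes the intermediate filament of astrocytes and is also made by some nonmyelinating Schwann cells. Slc1a2 and Slc1a3 encode the glutamate transporters GLT-1 and GLAST, and GLAST is also known from supporting cells next to inner hair cells. Aldh1l1 encodes an enzyme of folate metabolism that is widely used to mark astrocytes.

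The 9 genes did not form 1 set in these samples. Gfap, Mobp, Mog, Olig1, Olig2 and Opalin were low, at most 6.36 FPKM in any sample, and each had its highest value in young replicate 1. Slc1a3, Slc1a2 and Aldh1l1 lay between 14.8 and 78.1 FPKM in every sample and did not have their highest value in that library. Olig1 was nearly as high in old replicate 2, at 0.474 FPKM against 0.482 FPKM in young replicate 1. Olig2 and Opalin rested on about 4 and 3 fragments at most. The label of central glia was thus not borne out as 1 pattern over the samples, and the 3 abundant genes are described apart from the others. In the comparison of old with young samples, 0 of the 7 members that entered the test passed (limma, adjusted p below 0.05), against 9.11% of all genes tested. In bulk tissue, fewer cells of a type and less RNA per cell cannot be told apart.

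The libraries corresponded to between 12560000 and 15670000 fragments, as the spacing of low FPKM values shows. Old replicate 2, with 15670000, was the deepest, and young replicate 1 had 13190000. Fragment numbers given below are not scaled to depth, whereas FPKM values are. Young replicate 1 stood apart in genes of other tissues, which were picked after their values were seen. S100a8, a neutrophil gene, was at 227.9 FPKM there and at 7.71 to 36.4 FPKM in the other samples. Ttr, which the choroid plexus of the brain makes in large amounts, was at 207.4 FPKM there and at 19.3 to 30.4 FPKM elsewhere. Bglap, the osteoblast gene for osteocalcin, was at 133.4 FPKM there and at 2.20 to 51.2 FPKM elsewhere. In all, 1.3% of the genes tested were at least 2-fold higher in young replicate 1 than in each other sample. The same share was not computed for the other samples. Young replicate 1 held the highest value for 13.1% of the genes tested, and each other sample for 15.1% to 21.2%. Tissue of the cochlea itself was present in all libraries, with Gjb2, the gap junction gene of supporting cells, at 338.6 to 478.3 FPKM.

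Promoters are shown for the 3 myelin genes and Gfap, which encode structural proteins of these glia and were highest in the same library. They come from RefSeq (GRCm38.p6), and a window runs from 250 bases before to 50 bases after the annotated start. Windows were found for 8 of the 9 members, and that of Olig1 was not found. The start lay 69 bases from that of the most abundant Gfap transcript and 0 bases from those of Mobp, Mog and Opalin. Capitals mark the motifs ACAAAG and AACAAT, short forms of what SOX factors bind, and CANNTG, the E-box of basic helix-loop-helix factors such as the Olig proteins, on either strand.
Mobp, chr9:120149492-120149791, plus strand: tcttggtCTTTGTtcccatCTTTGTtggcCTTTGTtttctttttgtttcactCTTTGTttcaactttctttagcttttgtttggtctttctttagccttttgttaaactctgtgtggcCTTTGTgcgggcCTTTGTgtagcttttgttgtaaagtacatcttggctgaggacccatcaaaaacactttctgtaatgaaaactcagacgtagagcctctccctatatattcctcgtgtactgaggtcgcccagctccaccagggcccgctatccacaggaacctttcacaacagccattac
Mog, chr17:37023349-37023648, minus strand: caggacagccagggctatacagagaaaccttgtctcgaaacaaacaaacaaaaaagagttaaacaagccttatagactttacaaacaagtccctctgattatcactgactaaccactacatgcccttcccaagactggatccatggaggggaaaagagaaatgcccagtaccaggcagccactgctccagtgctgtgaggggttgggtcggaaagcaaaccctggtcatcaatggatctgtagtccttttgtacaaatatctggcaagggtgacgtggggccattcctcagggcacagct
Gfap, chr11:102897151-102897450, minus strand: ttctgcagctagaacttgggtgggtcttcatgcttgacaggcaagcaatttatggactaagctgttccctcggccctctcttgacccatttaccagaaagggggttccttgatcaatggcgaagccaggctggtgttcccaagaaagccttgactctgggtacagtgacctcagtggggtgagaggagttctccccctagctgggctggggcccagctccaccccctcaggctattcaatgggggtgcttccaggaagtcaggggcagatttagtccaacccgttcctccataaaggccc
Opalin, chr19:41077064-41077363, minus strand: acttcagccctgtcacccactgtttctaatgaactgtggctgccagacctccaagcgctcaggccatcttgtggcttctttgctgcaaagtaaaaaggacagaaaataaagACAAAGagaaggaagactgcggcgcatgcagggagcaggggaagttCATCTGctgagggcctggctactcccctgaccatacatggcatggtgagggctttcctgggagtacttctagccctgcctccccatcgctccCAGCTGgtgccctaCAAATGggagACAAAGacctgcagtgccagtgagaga
The Mobp window holds 6 matches to ACAAAG, which appear as CTTTGT on the strand shown, and the Opalin window holds 2. Of 32851 windows of this length, 18.7% hold ACAAAG at least once. The Opalin window also holds 3 matches to CANNTG, which 72.3% of all windows hold. AACAAT, held by 10.7% of all windows, was not found in these 4 and was found 1 time in the window of Olig2, which is not printed. The Mog and Gfap windows hold none of the 3 motifs. A match is a description of the letters only, and no match says only that these letters are not in the window.

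**Figure D1:**
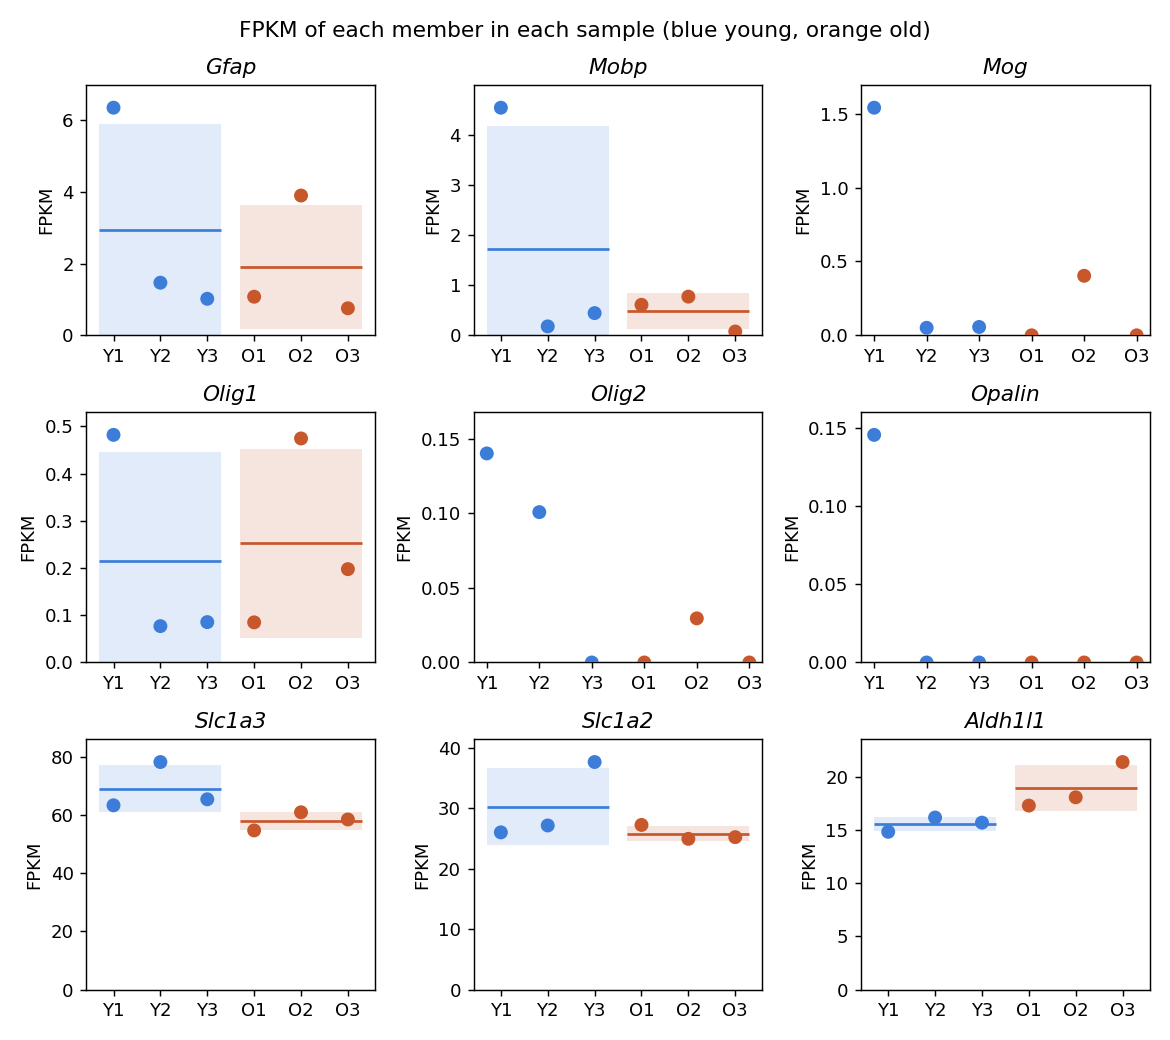
FPKM of each member in young samples (Y1 to Y3, blue) and old samples (O1 to O3, orange), with the group mean as a line and 1 SD as a band that stops at 0; no mean is drawn for genes listed at 0 in a sample. The first 6 genes have their highest point in Y1, whereas Slc1a3, Slc1a2 and Aldh1l1 stay within 1.51-fold over the 6 samples. Olig1 is nearly as high in O2 as in Y1.

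Among the myelin genes, Mobp (chromosome 9, 120149707 to 120181484 of GRCm38 in the GENCODE annotation, plus strand) had the highest level. It was at 4.54, 0.178 and 0.443 FPKM in young replicates 1, 2 and 3, while old replicates 1, 2 and 3 had 0.609, 0.772 and 0.0761 FPKM. Young replicate 1 was thus 5.88-fold above the next sample, and the other young samples lay among the old ones. About 136 fragments stood behind the value of young replicate 1 (95% exact Poisson interval 114.1 to 160.9, counting error only), and at most 29 behind any other. The log2 change from young to old was -0.90 (SE 1.09, limma adjusted p = 0.634), and the exact permutation test gave p = 0.8. The level came mainly from 2 transcripts, ENSMUST00000093773 of 3286 nt and ENSMUST00000068698 of 1536 nt, which were at 2.71 and 1.73 FPKM in young replicate 1. Neither passed (limma adjusted p = 0.918 and 0.539 over all transcripts).

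Mog (chromosome 17, 37010743 to 37023398, minus strand), which encodes a glycoprotein on the outer surface of central myelin, was also highest in young replicate 1, with old replicate 2 next. It was at 1.54, 0.0510 and 0.0566 FPKM in young replicates 1, 2 and 3, and in old replicate 2 it was at 0.403 FPKM. Old replicates 1 and 3 listed it at 0. These values corresponded to 21 fragments in young replicate 1 (interval 13 to 32.1), 9 in old replicate 2 (4.12 to 17.1) and 1 in each of the other young replicates (0.0253 to 5.57). Young replicate 1 was above both other young samples beyond counting error, and both age groups held a high and a low library. The log2 change was -0.98 (SE 1.12, limma adjusted p = 0.608).

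Opalin (chromosome 19, 41061710 to 41077113, minus strand), a membrane protein gene of mature oligodendrocytes, was seen in 1 library only. It was at 0.146 FPKM in young replicate 1, about 3 fragments (interval 0.619 to 8.77), and listed at 0 in the other 5 samples. Its mean was below the 0.1 FPKM needed to enter the test. This depth does not separate 3 fragments from 0.

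Olig1 (chromosome 16, 91269772 to 91271933, plus strand) has a single exon and a single transcript in the table. It was at 0.482, 0.0770 and 0.0855 FPKM in young replicates 1, 2 and 3, while old replicates 1, 2 and 3 had 0.0850, 0.474 and 0.198 FPKM. One young library and one old library were thus high, with 12 fragments (interval 6.20 to 21.0) in young replicate 1 and 14 (7.65 to 23.5) in old replicate 2, against 2 fragments in 3 of the others and 5 in old replicate 3. The log2 change was 0.24 (SE 0.69, limma adjusted p = 0.850), so the difference between ages was smaller than the spread within each age.

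Olig2 (chromosome 16, 91225457 to 91228677, plus strand) was at 0.140 and 0.101 FPKM in young replicates 1 and 2 and at 0.0295 FPKM in old replicate 2. The other 3 samples listed it at 0. About 4, 3 and 1 fragments stood behind these values, with intervals that all overlap, and the gene was too low to enter the test. No difference between libraries or ages was detectable in Olig2 at this depth.

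Gfap (chromosome 11, 102887336 to 102900912, minus strand) was the most abundant of the 6. It was at 6.36, 1.47 and 1.02 FPKM in young replicates 1, 2 and 3, while old replicates 1, 2 and 3 had 1.08, 3.90 and 0.756 FPKM. As for Olig1 and Mog, young replicate 1 and old replicate 2 were the high libraries. The fragments numbered about 198 (interval 171.4 to 227.6) and 145 (122.4 to 170.6) there and 24 to 48 in the others. The means were 2.95 ± 2.96 FPKM in young and 1.91 ± 1.73 FPKM in old samples (SD, n = 3), and the log2 change was -0.50 with an SE of 0.78 (limma adjusted p = 0.717). The exact permutation test gave p = 0.6. Most of the level came from the transcript ENSMUST00000067444 (2648 nt, 9 exons), at 5.60 FPKM in young replicate 1 and 3.81 FPKM in old replicate 2, and the transcript ENSMUST00000077902 was at most 0.758 FPKM.

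Young replicate 1 was highest and old replicate 2 second for Gfap, Mobp, Mog and Olig1, that is for 4 of the 7 members tested. Of all genes tested, 1.78% had this order, and of those with a mean below 5 FPKM, 2.62%. Young replicate 1 held the highest value for the same 4 of 7, against 13.1% of all genes tested and 15.9% of those with a mean below 5 FPKM, and for Olig2 and Opalin, which did not enter the test. For Mog, Olig1, Olig2 and Opalin the counting interval of young replicate 1 overlapped that of another library, as did the intervals of old replicates 1 and 2 for Mobp, so that these places in the order are within counting error. The order was noticed in these values, so the counts describe the members and were not tested.

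Genes of brain neurons, which are not markers of glia, were taken from a list of 11 to see what else young replicate 1 held. Of the 8 with a mean below 1 FPKM, 7 had their highest value there, and their sum was 2.98 FPKM in young replicate 1 against 0.452 to 1.23 FPKM in the other samples. Gabra6, a GABA receptor subunit of cerebellar granule cells, was at 0.479 FPKM in young replicate 1 and listed at 0 in the other samples. Cbln3, also a granule cell gene, was at 0.717 FPKM in young replicate 1 and 0.494 FPKM in old replicate 2, and at 0.117 to 0.195 FPKM in the others, which is the order seen for Gfap. Only 2 of the 11 genes of the list had young replicate 1 highest and old replicate 2 second. Neurod6, a factor of forebrain neurons, was listed at 0 in all young samples. The whole list summed to 13.6 to 21.6 FPKM in young and 9.72 to 10.7 FPKM in old samples, mostly from Slc17a6, Pcp2 and Gad1. Slc17a6, a vesicular glutamate transporter, was the 1 gene of the list that passed, from 14.0 ± 3.98 to 5.76 ± 0.398 FPKM (SD, n = 3, log2 change -1.23, limma adjusted p = 0.0230), and 0 passed higher. That is 1 of the 6 tested, while 3.69% of all genes passed lower and 5.42% higher. Slc17a6 was at 15.2, 17.2 and 9.54 FPKM in young replicates 1, 2 and 3. Its highest library was thus young replicate 2, as for Slc17a7 of the spiral ganglion neuron genes, at 36.7, 47.2 and 24.7 FPKM. The part of brain or of other tissue in the levels of the members was not tested.

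**Figure D2:**
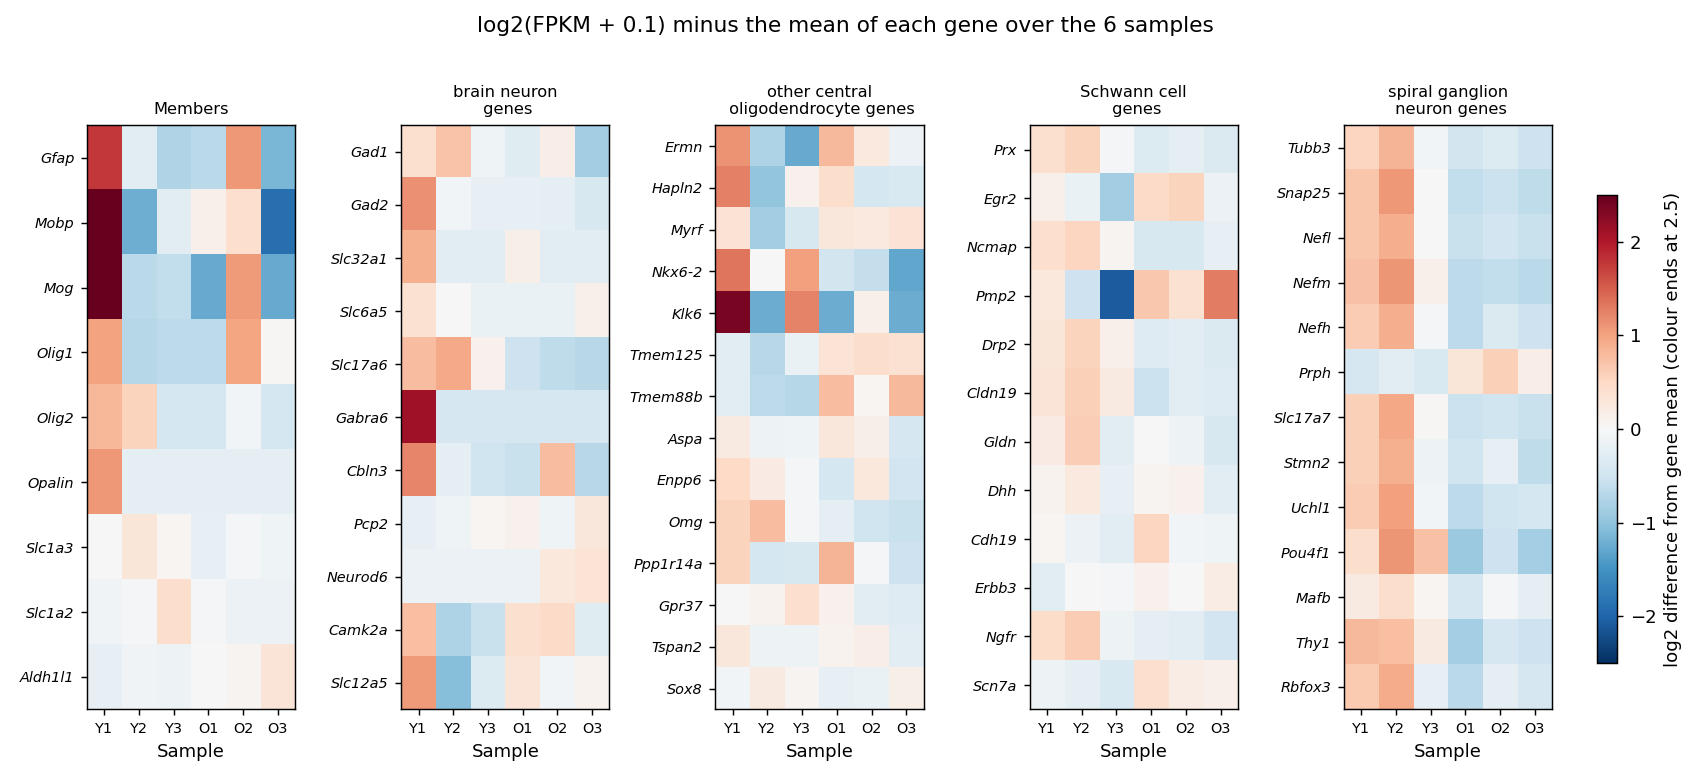
log2(FPKM + 0.1) in each sample minus the mean of the gene over the 6 samples, for the members and genes of 4 of the lists (red above, blue below the mean). Y1 is red for Gfap, Mobp, Mog, Olig1, Olig2, Opalin and several brain neuron genes, whereas Prx and Snap25 are highest in Y1 and Y2 and low in all old samples. Other nerve genes go the other way, as Pmp2, Scn7a and Prph are higher in all old samples than in all young ones.

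The other oligodendrocyte genes of the central nervous system shared the high values of young replicate 1 but not those of old replicate 2. Of 15 listed genes, 7 had a mean below 1 FPKM (among them Ermn, Hapln2, Myrf, Nkx6-2, Klk6 and Tspan2). All 7 were highest in young replicate 1, with a sum of 5.09 FPKM there and 1.77 to 2.85 FPKM elsewhere. That sum was 2.55 FPKM in old replicate 2, 2.60 FPKM in old replicate 1 and 2.85 FPKM in young replicate 3. Of the 15, 2 had young replicate 1 highest and old replicate 2 second. Klk6, a protease gene of oligodendrocytes, was at 1.12 FPKM in young replicate 1, 0.455 FPKM in young replicate 3 and 0.157 FPKM in old replicate 2, and was listed at 0 in the other samples. Of the 15 tested, 1 passed higher in old mice and 0 lower, against 5.42% and 3.69% of all genes. The median log2 change was -0.15 against 0.009 for all genes. The 1 was Tmem125, at 3.27 ± 0.629 FPKM in young and 5.56 ± 0.193 FPKM in old mice (SD, n = 3, log2 change 0.77, limma adjusted p = 0.0391). The most abundant, Sox8, Gpr37 and Aspa, lay between 8.02 and 31.5 FPKM, and none of these 3 passed (limma adjusted p = 0.457, 0.235 and 0.982).

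Genes of oligodendrocyte precursors were mostly highest in other libraries, as 1 of 8 had its highest value in young replicate 1. Neu4 was at most 0.0573 FPKM, and Gpr17, a receptor of cells that are about to myelinate, was at 0.709 to 1.41 FPKM. Of 7 tested, 1 passed lower and 0 higher, against 3.69% and 5.42% of all genes, with a median log2 change of -0.24. Lhfpl3 was the 1, and it fell from 30.4 ± 9.27 to 13.2 ± 0.768 FPKM (SD, n = 3, log2 change -1.16, limma adjusted p = 0.0261). The other abundant genes were Pdgfra, which fibroblasts also express, at 21.8 to 37.6 FPKM, and Bcan, at 5.27 to 8.999 FPKM, and neither passed (limma adjusted p = 0.108 and 0.0998).

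Slc1a3 (chromosome 15, 8634124 to 8710764, minus strand) was the most abundant member. It was at 63.3, 78.1 and 65.4 FPKM in young replicates 1, 2 and 3, while old replicates 1, 2 and 3 had 54.7, 60.9 and 58.4 FPKM. All young samples lay above all old ones, but by a small step, from 60.9 to 63.3 FPKM. The means were 68.9 ± 8.05 and 58.0 ± 3.14 FPKM (SD, n = 3), and the log2 change was -0.24 with an SE of 0.09 (limma adjusted p = 0.149), so the gene did not pass. The exact permutation test gave p = 0.1, the smallest that 3 samples against 3 allow. One transcript, ENSMUST00000005493 (4163 nt, 10 exons), carried the level, and its log2 change was -0.25 with an SE of 0.10 (adjusted p = 0.301 in limma over all transcripts).

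Slc1a2 (chromosome 2, 102658659 to 102790784, plus strand) was at 26.0, 27.2 and 37.6 FPKM in young replicates 1, 2 and 3, while old replicates 1, 2 and 3 had 27.2, 24.9 and 25.2 FPKM. Young replicate 3 was high and the other samples overlapped. The log2 change was -0.21 with an SE of 0.14 (adjusted p = 0.384, limma). The sum hid a difference between its 7 transcripts. ENSMUST00000080210, of 11595 nt and 11 exons, held 86.3% to 90.7% of the estimated fragments of the gene in each sample. It was at 13.7, 12.4 and 12.9 FPKM in young and 10.9, 10.5 and 9.47 FPKM in old replicates 1, 2 and 3, so that the groups did not overlap, as was the case for 24.6% of all transcripts tested. Its log2 change was -0.33 (SE 0.10, unadjusted p = 0.0144, limma adjusted p = 0.169 over all transcripts). Of the 16 transcripts of the members that were tested, 0 passed, against 0.748% of all transcripts.

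The short transcript ENSMUST00000123759, of 510 nt, had the widest range in FPKM units of the transcripts of Slc1a2, though not as a fold. It was at 3.06, 7.45 and 17.7 FPKM in young and 5.57, 4.85 and 8.87 FPKM in old replicates 1, 2 and 3. It held up to 47.0% of the FPKM of the gene but at most 2.297% of its estimated fragments, which is 46.7 fragments in young replicate 3. Where transcripts were weighted by their length, as estimated fragments scaled to 1000000 in each library, Slc1a2 was at 171.1, 154.4 and 161.8 in young and at 143.2, 136.3 and 120.6 in old replicates 1, 2 and 3. All old samples were then below all young ones, and Slc1a2 passed (log2 change -0.29, SE 0.08, limma adjusted p = 0.0352). This scale was chosen after the data were seen, and 18.1% of all genes were called on it, so that 1 called member of 8 tested is near the background.

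**Figure D3:**
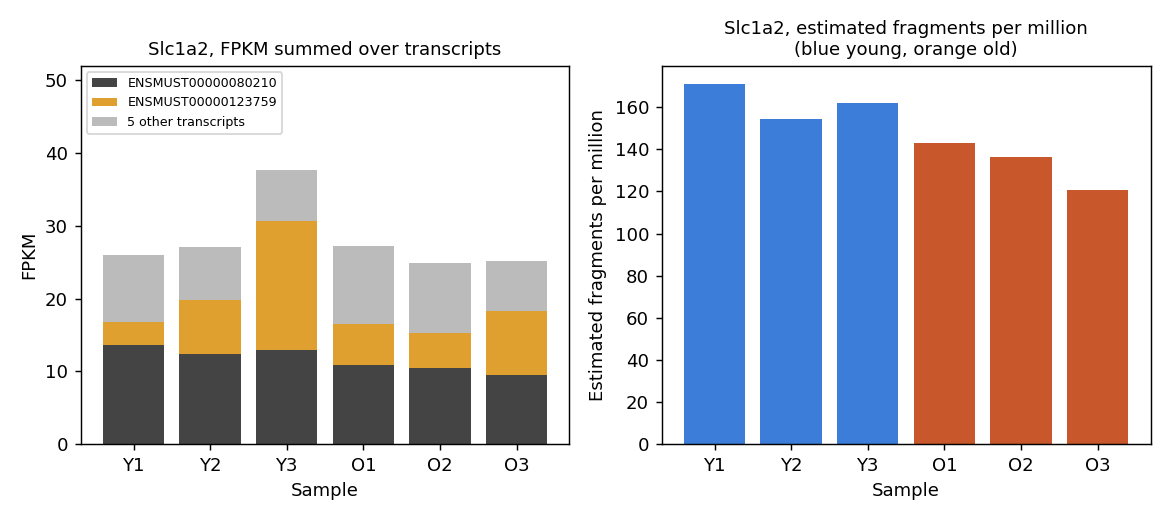
Left, FPKM of Slc1a2 in each sample as a stack of its transcripts; right, its estimated fragments scaled to 1000000 in the same samples (Y, young; O, old). On the left the sums of the age groups overlap and ENSMUST00000123759 ranges from 3.06 to 17.7 FPKM, and the right bars lie between 154.4 and 171.1 in young and between 120.6 and 143.2 in old samples.

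Aldh1l1 (chromosome 6, 90486427 to 90600203, plus strand) was the 1 abundant member that was higher in the old samples. It was at 14.8, 16.2 and 15.7 FPKM in young replicates 1, 2 and 3, while old replicates 1, 2 and 3 had 17.3, 18.1 and 21.4 FPKM. The groups did not overlap, and the young values lay close together. The means were 15.6 ± 0.679 and 18.9 ± 2.17 FPKM (SD, n = 3), and the log2 change was 0.28 with an SE of 0.10 (limma adjusted p = 0.136), so the gene did not pass. On the scale of estimated fragments its adjusted p in limma was 0.05 after rounding and just missed the threshold. Its main transcript was ENSMUST00000032175 (3052 nt, 23 exons), at 12.6 to 13.9 FPKM in young and 14.9 to 18.2 FPKM in old mice.

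Slc1a3 and Aldh1l1 were the 2 of 7 tested members whose age groups did not overlap, against 33.6% of all genes tested. They were also the 2 of 7 with an unadjusted p below 0.05 in limma, against 27.5% of all genes. Both shares are near or below the background. In order of their overall means, Slc1a3 at 63.5, Slc1a2 at 28.0 and Aldh1l1 at 17.2 FPKM did not overlap in any sample. Gfap, at 2.43 FPKM, was below all 3 in every sample, and it overlapped with Mobp, at 1.104 FPKM. Mog, Olig1, Olig2 and Opalin followed in this order, and each overlapped with its neighbours.

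**Figure D4:**
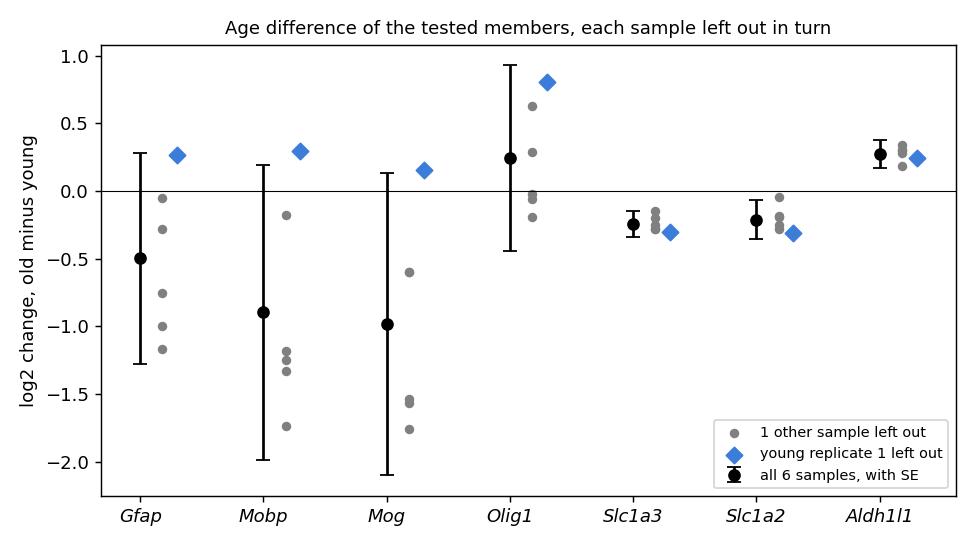
log2 change from young to old of the 7 tested members with all 6 samples (black, bar 1 SE), with young replicate 1 left out (blue diamond) and with each other sample left out (grey). Gfap, Mobp and Mog move from below 0 to 0.26, 0.30 and 0.16 without young replicate 1, whereas Slc1a3, Slc1a2 and Aldh1l1 keep their sign.

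The direction of the age difference in the low members rested on single libraries. Without young replicate 1 the log2 change of Gfap was 0.26, that of Mobp 0.30 and that of Mog 0.16, in place of -0.50, -0.90 and -0.98. Olig1, above 0 with all samples, was below 0 when young replicate 2, young replicate 3 or old replicate 2 was left out (log2 change -0.06, -0.02 and -0.19). The number of members that passed was 0 without young replicate 1, against 3.67% of all genes tested there. With both young replicate 1 and old replicate 2 left out, 0 of 6 members passed, and Gfap and Mobp were below 0 again (log2 change -0.40 and -0.14).

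Other astrocyte genes were compared from a list of 15, of which several are known from nonglial cells of the cochlea. The 4 with a mean below 1 FPKM, Mlc1, Ntsr2, Slc7a10 and Slc39a12, were all highest in young replicate 1, with a sum of 3.58 FPKM there and 0.502 to 1.31 FPKM elsewhere. S100b, a calcium-binding protein, was at 2743 to 3642 FPKM, Glul, glutamine synthetase, at 1196 to 1462 FPKM, and Gjb6, connexin 30 of cochlear supporting cells, at 601.9 to 702.1 FPKM. None of these 3 passed (limma adjusted p = 0.168, 0.823 and 0.627). Of 14 tested, 1 passed lower and 0 higher, against 3.69% and 5.42% of all genes, with a median log2 change of -0.24. Gja1, connexin 43, was the 1, and it fell from 4.47 ± 1.89 to 1.51 ± 0.504 FPKM (SD, n = 3, log2 change -1.47, limma adjusted p = 0.0436). Aqp4, the water channel of astrocyte end feet that cochlear supporting cells also make, was at 7.85 to 10.3 FPKM in young and 6.04 to 7.30 FPKM in old mice and did not pass (limma adjusted p = 0.0882).

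Schwann cell genes differed from the central genes in the libraries that were high. Prx, which encodes periaxin, a scaffold protein of myelinating Schwann cells, was at 51.3, 57.3 and 38.0 FPKM in young replicates 1, 2 and 3, while old replicates 1, 2 and 3 had 30.5, 32.8 and 30.1 FPKM. Young replicate 2 was thus the highest library for Prx, while Mobp was 25.4-fold lower there than in young replicate 1. Of 13 Schwann cell genes tested, 5 passed lower in old mice and 0 higher, against 3.69% and 5.42% of all genes, with a median log2 change of -0.35. Among them were Cldn19, Drp2, Ncmap and Prx (log2 change -0.77, -0.65, -0.67 and -0.63, limma adjusted p from 0.0201 to 0.0419). Of the 13, 8 had a log2 change below 0. Pmp2, Egr2, Scn7a, Cdh19 and Erbb3 were above 0 (log2 change 1.56, 0.60, 0.49, 0.24 and 0.20). None of these passed (limma adjusted p from 0.110 to 0.453). Without young replicate 1, 1 of the 13 passed lower and 0 higher.

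Myelin genes that both glia express lay between these patterns. Mbp was at 311.7, 246.9 and 180.4 FPKM in young replicates 1, 2 and 3, while old replicates 1, 2 and 3 had 177.8, 205.5 and 191.8 FPKM (limma adjusted p = 0.286). Within each age it was highest in young replicate 1 and old replicate 2, the libraries that were high in Gfap. Cldn11, which basal cells of the stria vascularis also make, was at 202.9 to 346.4 FPKM and did not pass (limma adjusted p = 0.0639). Mal, at 111.2 to 135.7 FPKM, did not pass (limma adjusted p = 0.726). Of 11 tested, 2 passed lower and 0 higher, against 3.69% and 5.42% of all genes, with a median log2 change of -0.47. Fa2h and Ugt8a, enzymes that make the galactolipids of myelin, fell from 7.55 ± 0.727 to 2.65 ± 0.481 and from 28.5 ± 6.98 to 12.9 ± 1.46 FPKM (SD, n = 3, limma adjusted p = 0.0116 and 0.0226).

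Of 13 spiral ganglion neuron genes tested, 9 passed lower in old mice and 0 higher, against 3.69% and 5.42% of all genes. The median log2 change was -1.06, and young replicate 2 was the highest library for most. Prph, which encodes peripherin, was at 1.47 to 1.66 FPKM in young and 2.25 to 3.07 FPKM in old mice and did not pass (log2 change 0.70, limma adjusted p = 0.0686). Snap25, of the synaptic vesicle fusion machinery, was at 335.2, 438.9 and 210.3 FPKM in young replicates 1, 2 and 3 and at 134.7 to 143.9 FPKM in old mice (log2 change -1.19, limma adjusted p = 0.0290). Nefl and Nefh, which encode neurofilaments, fell with log2 changes of -1.07 and -1.01 (limma adjusted p = 0.0268 and 0.0365). Thy1, Nefm, Slc17a7, Pou4f1, Uchl1 and Tubb3 also fell (log2 change from -1.53 to -0.88, limma adjusted p from 0.0167 to 0.0464). Without young replicate 1, 1 of the 13 passed lower and 0 higher. Of the cochlear supporting cell genes, 1 of 10 passed higher and 0 lower, against 5.42% and 3.69% of all genes. The median log2 change was -0.17, and 0 of 10 had their highest value in young replicate 1. The 1 was Otog, at 10.9 ± 0.844 and 18.1 ± 3.54 FPKM (SD, n = 3, limma adjusted p = 0.0325), and the most abundant were Gjb2, Fgfr3 and Otog. Without young replicate 1, Otog did not pass, and neither did Gja1, Tmem125, Lhfpl3 and Slc17a6 of the lists described before, while of the myelin genes of both glia 1 passed lower.

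Among 13211 other protein-coding genes with a mean of at least 1 FPKM, those most like mean profiles of members were found. For the mean scaled profile of Mobp, Mog and Olig1 they were Chchd2, Pecr, Exd2, Fam161a and Lins1, with Pearson r from 0.956 to 0.988 over 6 samples. Their range was small, such as 474 to 519.2 FPKM for Chchd2, and with young replicate 1 and old replicate 2 left out r lay between -0.387 and 0.921 over 4 samples. For the mean scaled profile of Gfap, Slc1a2, Slc1a3 and Aldh1l1 they were Cdk11b, Taf1a, Fam57a, Efcc1 and Fam161b. Their r lay between 0.979 and 0.984 over 6 samples and between 0.987 and 0.999 without the same 2 samples. Gfap was highest in young replicate 1, Slc1a3 in young replicate 2, Slc1a2 in young replicate 3 and Aldh1l1 in old replicate 3. This mean profile was at 0.008139 in young replicate 1 and need not describe each of these members. The range of Cdk11b was also small, 11.87 to 12.96 FPKM. All points share their libraries, and r is given as a description only.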

How the data were processed

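Cochlear RNA of 3 young and 3 old samples was analysed by RNA-sequencing. The authors made directional libraries and aligned the filtered reads to GRCm38 (TopHat2 2.0.9 per the processing notes of the submitters). Transcripts were assembled by Cufflinks v2.1.1, and the authors deposited FPKM values per transcript and sample from Cuffdiff (v2.1.1). The annotation release and the scaling between libraries are not given in the sources used here.

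Transcripts were matched to GENCODE M21 (55189 of 55679 Ensembl transcripts) and FPKM was summed per gene symbol, which lets short transcripts with few fragments weigh heavily. Genes with a mean of at least 0.1 FPKM, 19634 in number, were compared with the linear models of limma 3.58.1 (R 4.3.3, variance trend, two-sided) on log2(FPKM + 0.1), which understates changes of low genes. Age group was the only term and p was adjusted by the Benjamini-Hochberg method over all genes tested (threshold 0.05). Transcripts were tested in the same way over 38764 transcripts. Cuffdiff could not be run on deposited FPKM. Nothing says whether the pools came from separate litters or cages, so that p-values measure only the spread between these samples. Every log2 change is old minus young.

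Fragments were estimated from the steps of low FPKM values, over single-transcript genes of 1000 to 4000 nt. After the length was reduced by 280 to 300 nt, 93.0% to 95.1% of these values lay within 0.1 of a whole number of fragments. Intervals cover counting error only. The depth fit and the limma fit were tested on simulated data.

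The members, the lists and the tests were chosen with earlier results of these data known. All members are named. Of the lists, the genes that passed (up to 8 by smallest p) and the 3 with the highest mean were to be named, and others are named because of their library pattern, after their values were seen. Some genes of the lists are not reported here by name. Python 3.11.15, numpy 2.4.6, pandas 2.3.3, scipy 1.17.1 and matplotlib 3.10.9 were used for the other steps.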

Additional observations from a re-analysis of the deposited data

How the results depend on the processing

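The number of members that passed was 0 in every setting of limma that kept FPKM and adjusted p, with 5 to 9 members tested. It was 2 with an unadjusted p (Slc1a3 and Aldh1l1) and 1 on the scale of estimated fragments (Slc1a2). For transcripts of the members it was 0 in all settings run. The number of genes that passed, 1788 of 19634, was 911 with no filter on low values, 392 without the variance trend, 62 with young replicate 1 and old replicate 2 left out together, 3322 on the scale of estimated fragments and 5403 with an unadjusted p. With 1 sample left out it lay between 59 (without old replicate 2) and 1760 (without young replicate 3), and the counts for the lists rest on it. The log2 change lay between -1.16 and 0.26 for Gfap, -1.73 and 0.30 for Mobp, -1.76 and 0.16 for Mog, and -0.19 and 0.80 for Olig1 when 1 sample was left out. The upper ends of Gfap, Mobp and Mog are those without young replicate 1. With a pseudocount of 0.01 or 1 Mog was at -2.42 or -0.34 in place of -0.98. With quantile normalization Olig1 was at -0.074. Slc1a3, Slc1a2 and Aldh1l1 kept their sign in all settings run. The cause of these changes was not tested.

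With the replicate number as a block, 683 genes and 0 members passed. Deviations of equal-numbered samples correlated with r from -0.096 to 0.039, and 2 of 6 samples correlated best with their own number, so the numbers do not pair the samples. Olig1, Olig2, Opalin and Mog rest on at most 21 fragments per library, which limits their precision.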

Other observations

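Genes known to rise in reactive astrocytes were looked at beside Gfap, although most are also expressed by immune cells, fibroblasts or other glia. Of 12 tested, 3 passed higher in old mice and 0 lower, against 5.42% and 3.69% of all genes, with a median log2 change of 0.57. Serpina3n, a serine protease inhibitor, was at 0.551, 0.162 and 0.542 FPKM in young replicates 1, 2 and 3, while old replicates 1, 2 and 3 had 1.97, 8.58 and 5.05 FPKM (log2 change 3.24, SE 0.58, limma adjusted p = 0.0244). Nes, the intermediate filament nestin, rose from 16.3 ± 3.04 to 32.8 ± 1.495 FPKM (SD, n = 3, limma adjusted p = 0.0127), and Cd44 rose from 15.2 ± 2.85 to 25.7 ± 1.60 FPKM (limma adjusted p = 0.0263). Vim and Hspb1, the most abundant with Nes, did not pass (limma adjusted p = 0.225 and 0.873). Timp1 was at 18.04 FPKM in old replicate 2, at 4.18 FPKM in young replicate 1 and at 0.608 to 4.23 FPKM in the others, and did not pass (limma adjusted p = 0.221). Gfap, by comparison, had a log2 change of -0.50 and did not pass (limma adjusted p = 0.717).

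Of 10 microglia and macrophage genes tested, 6 passed higher in old mice and 0 lower, against 5.42% and 3.69% of all genes. The median log2 change was 0.86. Lyz2, lysozyme, rose with a log2 change of 2.64 (limma adjusted p = 0.00178), Adgre1, Csf1r and Cd68 with 1.45, 1.24 and 1.75 (0.0137, 0.0151 and 0.0183) and Tmem119, a gene of microglia and of bone cells, with 0.86 (0.0320). P2ry12, which is more typical of microglia, was at 1.16 to 1.89 FPKM in young and 1.66 to 2.503 FPKM in old mice and did not pass (limma adjusted p = 0.436). Without young replicate 1, 5 of these 10 and 3 of the 12 reactive astrocyte genes passed higher. None of the 10 had its highest value in young replicate 1, the library with the most Mobp, Mog and Gfap. The share of microglia in these levels was not tested.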
